A study of Homo sapiens with 6 samples.

Results

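The genes described here are TNFSF10, which encodes the death ligand TRAIL, the 4 TRAIL receptor genes TNFRSF10A to TNFRSF10D, the death receptor gene FAS, and FADD, CASP8, CASP10 and CFLAR, whose products form the death-inducing complex under these receptors. They were taken by gene symbol, and the rule used no measured value, although the set was chosen with earlier results of these data known. All 10 had a row among the 29889 genes of the count table and among the 29687 genes of the FPKM table, and all 10 were among the 15847 genes that passed the filter on low counts. In A549 cells that over-expressed the RNA-binding protein CELF6, TNFSF10 fell 7.07-fold, to 14.1% of the Control level. FAS and CASP10 fell by a smaller amount, 1.65-fold and 1.56-fold. TNFRSF10A, TNFRSF10B, TNFRSF10C, CASP8 and CFLAR also fell, each by less than the study's 1.5-fold limit, whereas the adaptor FADD and the decoy receptor TNFRSF10D did not pass the test.

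The extrinsic route to apoptosis begins at the cell surface. TRAIL or FAS ligand clusters its receptor, the receptor tails recruit FADD through death domains, and FADD recruits caspase-8 and caspase-10, which cleave and activate one another. FLIP, the product of CFLAR, occupies places in the same complex and limits this activation, and decoy receptors bind TRAIL without a functional death domain. TRAIL is also known as an interferon-stimulated gene, and lung cancer lines have been widely used to study sensitivity to it.

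A549 is an established human lung adenocarcinoma line. The cells were transiently transfected either with a pIRES-hrGFP-1a plasmid carrying CELF6 (CELF6-OE) or with the empty plasmid (Control), so liposome transfection and the reporter backbone were common to both groups, and RNA was taken 48 h later from 3 biological replicates of each. Polyadenylated RNA was sequenced from the whole culture, and the share of cells that took up the plasmid was not given in the sources used here. For that reason fewer cells with a transcript and less of it per cell cannot be told apart. The design addresses which transcripts change when CELF6 is supplied to these cells.

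The 6 libraries held between 33748328 and 37920700 counts on genes, and the TMM factors that scale them lay between 0.9626 and 1.023. The CELF6-OE libraries held 18646, 20789 and 11571 counts of CELF6, in the order of their replicate numbers, and each Control library held 0. Of 6 epithelial markers, 4 fell and 0 rose (beside 11.5% and 6.47% of all genes tested), and their summed level was 10500 to 12200 CPM (counts scaled by library size) in CELF6-OE against 13100 to 14800 in Control. CDH1, the epithelial cadherin, had a log2 fold change of -1.62 ± 0.17 (SE), and the keratins KRT8, KRT18 and KRT19 had -0.47, -0.36 and -0.22. KRT7 (-0.09) and EPCAM (-0.41) were not called, and their groups overlapped. Of 13 leukocyte markers, 3 passed the filter on low counts and 1, ITGAM, fell. Their sum was 9.09 to 11.9 CPM in CELF6-OE and 9.52 to 10.9 in Control, and PTPRC, which defines leukocytes, had no more than 2 counts in any library. Of 6 fibroblast and endothelial markers, 2 passed the filter and PECAM1 fell, and their sum was 1.69 to 2.55 CPM in CELF6-OE and 2.95 to 3.46 in Control. PECAM1 had 3, 3 and 5 counts in CELF6-OE against 11, 17 and 15 in Control. Only its Control libraries reached the filter's minimum count of 10, so its call is no separate evidence. The 4 called epithelial markers moved with the results below, and their part in them was not tested.

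A gene was called when its adjusted p was under 0.05 by the quasi-likelihood test of edgeR, adjusted by Benjamini-Hochberg over all 15847 genes. By this rule 8 of the 10 genes were called lower in CELF6-OE, beside 11.5% of all genes tested, and 0 were called higher, beside 6.47%. At the thresholds of the study's methods (a 1.5-fold change or more with p under 0.01), 3 of the 10 were lower, beside 5.91% of all genes, and 0 were higher, beside 1.36%. The highest CELF6-OE library, in scaled CPM, was below the lowest Control library in 8 of the 10 genes, beside 20% of all genes, and the reverse held in 1, TNFRSF10D, beside 17.9%. The median log2 fold change was -0.35 over the 10 genes and 0.01 over all genes. The count of 8 depended on single libraries. It was 3 without CELF6-OE replicate 1 or without Control replicate 2, and 5 without CELF6-OE replicate 2 or replicate 3. It stayed at 8 without Control replicate 1 or without Control replicate 3. Every one of these fits was left with 2 libraries in 1 group. TNFSF10, FAS and CASP10 were called in every one of the 17 alternative analyses of the counts.

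**Figure D1:**
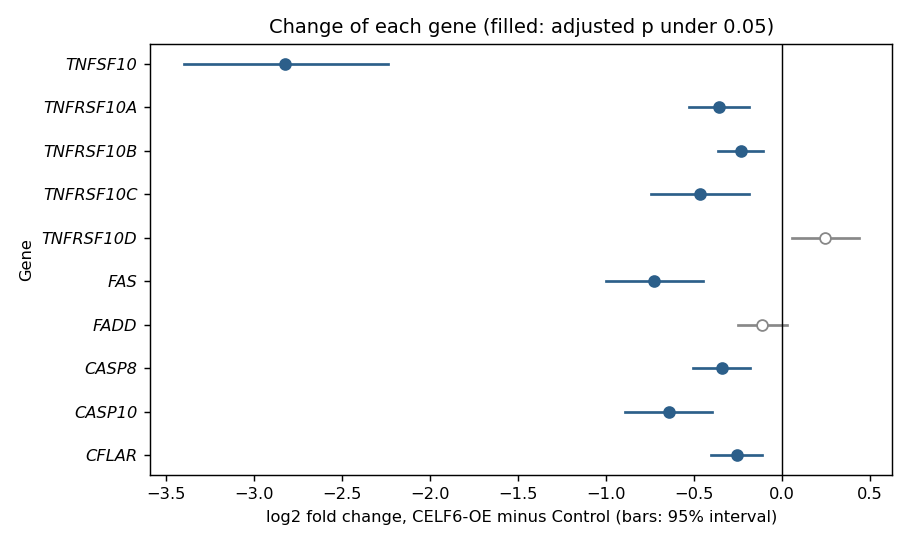
Log2 fold change (x axis, CELF6-OE minus Control) of each of the 10 genes (y axis), with bars for the 95% interval of edgeR's quasi-likelihood fit. TNFSF10 stands at -2.82, the other 7 filled points lie between -0.73 and -0.23, and the open points, FADD and TNFRSF10D, did not pass the test.

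TNFSF10 (ENSG00000121858) encodes the ligand and spans 172505508 to 172523475 of chromosome 3 on the minus strand (GRCh38). The CELF6-OE libraries, listed by replicate number here and for each gene after it, held 145, 77 and 221 counts, and the Control libraries held 1216, 1169 and 933. In FPKM, which scales fragments by transcript length and by the size of the library, these were 2.05, 1.06 and 3.2 against 16.44, 15.18 and 12.11. Every CELF6-OE library was far below every Control library, and the gap between the groups was wider than the range within either. The mean FPKM was 2.10 ± 1.07 in CELF6-OE and 14.6 ± 2.23 in Control (SD, n = 3 each). The log2 fold change was -2.82 ± 0.27 (SE), with a 95% interval from -3.4 to -2.24 and an adjusted p of 5.05e-05. Over the 17 alternative analyses of the counts it lay between -3.26 and -2.50, and with limma on log2(FPKM + 1), a scale that understates changes of low genes, it was -2.38. Relative to its mean, the level varied more within CELF6-OE than within Control, and replicate 2, with the most CELF6 counts, had the least TNFSF10, whereas replicate 3, with the fewest CELF6 counts, had the most. With 3 libraries this order was not tested.

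The RefSeq promoter of TNFSF10 is shown because the gene had the largest change of the 10. RefSeq's table on GRCh38.p14 covers 250 bases before to 50 bases after a start site. The promoters of the called genes that it holds were searched on both strands for GAAANNGAA, the core of the interferon-stimulated response element (ISRE), and for TTCNNNGAA, the gamma-activated site (GAS) of interferon signalling. Of the 35116 promoters in the table, 8.11% held the ISRE core and 7.66% held the GAS. The TNFSF10 window held 2 ISRE cores, whose first bases were at -186 and -54 counted from the RefSeq start site (chr3:172523430) as 0, and 0 GAS matches. That site lies inside the gene as GENCODE v44 gives it, and the first line below stops just before the GENCODE edge at 172523475. Both cores were matches to the reverse complement, so the core reads on the strand opposite to the gene. The first line gives the minus strand at chr3:172523476-172523680, upstream of the annotated gene, with both cores in capitals, and the lines after it give 25 bases around each match in CASP8 (chr2:201233453-201233477 for the ISRE core and chr2:201233255-201233279 for the GAS) and CFLAR (chr2:201132662-201132686), on the plus strand with the match in capitals.
TNFSF10 upstream: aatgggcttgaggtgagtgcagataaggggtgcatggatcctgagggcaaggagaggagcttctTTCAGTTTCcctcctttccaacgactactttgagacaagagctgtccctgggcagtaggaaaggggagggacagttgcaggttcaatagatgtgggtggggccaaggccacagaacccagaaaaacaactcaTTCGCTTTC
CASP8 ISRE core: tttttggtTTCTGTTTCaccttgtg
CASP8 GAS: aattatttTTCCAAGAAgaaaataa
CFLAR ISRE core: acttcaaaTTCTATTTCtgtctttt

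In CASP8 the ISRE core began at -2 and the GAS at -200 of 1 of its 3 RefSeq promoters. In CFLAR an ISRE core began at -111 of 1 of its 4 promoters. None of the 3 FAS promoters held either set of letters in this window. CASP10 and the TRAIL receptor genes had no entry in the table. The promoter of FADD, which was not called, was not searched, so the matches have no uncalled gene of this set beside them. A match of these letters is a description of the sequence, and binding of any factor was not measured here.

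TNFRSF10A and TNFRSF10B encode the death receptors DR4 and DR5, which carry the TRAIL signal through an intracellular death domain. TNFRSF10A (ENSG00000104689) had FPKM of 10.57, 12.7 and 11.45 in CELF6-OE and 14.37, 14.67 and 14.47 in Control. TNFRSF10B (ENSG00000120889), at the highest level of the 10 genes, had 37.98, 40.57 and 39.05 against 44.75, 45.71 and 44.91. In neither gene did the groups overlap, and in FPKM the Control libraries lay closer together than the CELF6-OE libraries. In scaled CPM this closeness held for TNFRSF10A but not for TNFRSF10B. There TNFRSF10B had 164.2, 172.1 and 167.3 in CELF6-OE and 189.8, 200.9 and 201.4 in Control. TNFRSF10A fell, with mean FPKM of 11.6 ± 1.07 and 14.5 ± 0.153 (SD, n = 3 each), and its log2 fold change was -0.36 ± 0.08 (SE) with an adjusted p of 0.00952. TNFRSF10B fell, with means of 39.2 ± 1.3 and 45.1 ± 0.514, a log2 fold change of -0.23 ± 0.06 and an adjusted p of 0.0194. The call for TNFRSF10A was lost without CELF6-OE replicate 1 (adjusted p = 0.0626) or Control replicate 2 (0.0605). The call for TNFRSF10B was lost without any single CELF6-OE library (0.1, 0.0567 and 0.0653 without replicates 1, 2 and 3) and without Control replicate 2 (0.122). On the opposite strand, RP11-1149O23.3 shares 266 of the 2927 exon bases of TNFRSF10A and had 264 to 302 counts against 301 to 360 (-0.20 ± 0.11, SE, adjusted p = 0.218). RHOBTB2 shares 377 of the 5010 exon bases of TNFRSF10B and had 683 to 766 counts against 717 to 866 (-0.08 ± 0.09, adjusted p = 0.577).

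TNFRSF10C and TNFRSF10D encode the decoy receptors DcR1, which is held by a lipid anchor, and DcR2, whose death domain is truncated. TNFRSF10C (ENSG00000173535) had FPKM of 1.28, 1.56 and 1.52 in CELF6-OE and 2.02, 1.87 and 2.01 in Control. TNFRSF10D (ENSG00000173530) had 3.91, 4.4 and 4.09 against 3.45, 3.34 and 3.44. The decoys thus pointed in opposite directions, with no overlap of the groups in either. TNFRSF10C fell, with a log2 fold change of -0.46 ± 0.13 (SE) and an adjusted p of 0.0285 (counts of 115 to 143 against 182 to 196). For TNFRSF10D the log2 fold change was 0.25 ± 0.09, its interval ran from 0.06 to 0.44 before adjustment, and its adjusted p was 0.0725. Scaling by library size alone gave TNFRSF10D 0.29 with an adjusted p of 0.0474, and no other alternative called it. The call for TNFRSF10C was lost without CELF6-OE replicates 1, 2 or 3 (adjusted p = 0.122, 0.0619 and 0.0538) and without Control replicate 2 (0.0832).

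The 4 TRAIL receptor genes lie side by side on chromosome 8, over 205.0 kb from 23020133 to 23225102, in the order TNFRSF10B, TNFRSF10C, TNFRSF10D and TNFRSF10A. TNFRSF10C is on the plus strand and the others are on the minus strand. The nearest tested protein-coding genes that flank this block without overlapping it were BIN3 and CHMP7. BIN3 had a log2 fold change of -0.22 ± 0.07 (SE, adjusted p = 0.0531) and CHMP7 had 0.02 ± 0.07 (adjusted p = 0.878). RHOBTB2, given above, overlaps TNFRSF10B and is not counted as flanking. Neither flanking gene was called.

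Ratios within a library do not depend on how libraries are scaled to each other, so 3 of them were compared. Summed FPKM of the decoy receptors over the death receptors was 0.107, 0.112 and 0.111 in CELF6-OE and 0.0925, 0.0863 and 0.0918 in Control. This ratio was 1.22-fold higher in CELF6-OE without overlap (two-sided exact permutation test, p = 0.1, adjusted p = 0.15 over the 3 ratios). TNFRSF10D made up the larger part of the decoy sum in both groups and was not called on its own. The other decoy, TNFRSF10C, fell by more (-0.46) than TNFRSF10A (-0.36) or TNFRSF10B (-0.23), so the rise is not shared by both decoys. TNFSF10 over the summed death receptors was 0.0422, 0.0199 and 0.0634 in CELF6-OE against 0.278, 0.251 and 0.204 in Control. It was 6.45-fold lower, again without overlap (exact p = 0.1, adjusted p = 0.15). CFLAR over CASP8, inhibitor over initiator, was 0.492, 0.567 and 0.477 against 0.447, 0.48 and 0.519. Here the groups overlapped, and the mean log2 difference was 0.08 (exact p = 0.5, adjusted p = 0.5). The size of this ratio depends on the length that FPKM assigns to each gene. In scaled CPM, CFLAR was above CASP8 in every library. With 3 libraries against 3 the smallest p possible is 0.1, so none of the ratios could pass 0.05.

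**Figure D2:**
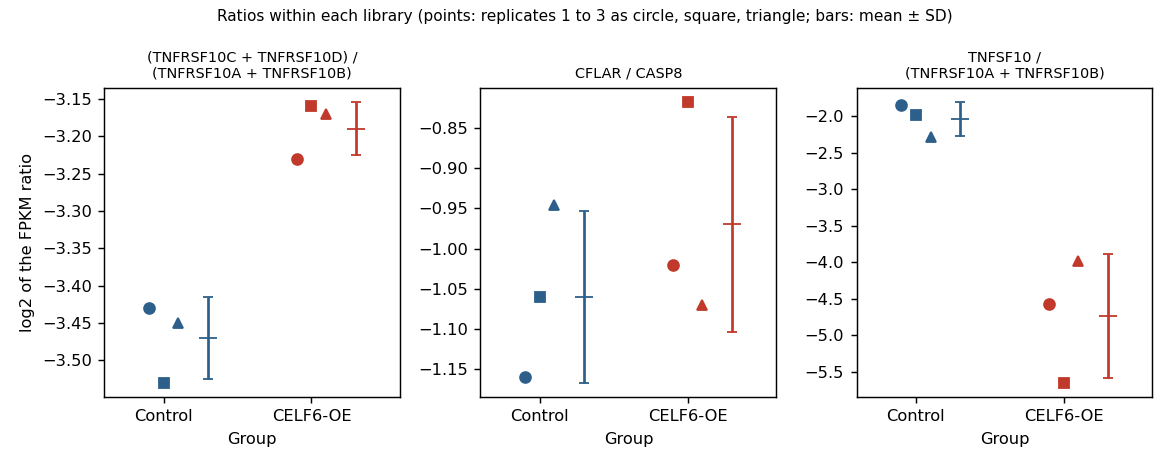
Log2 of 3 FPKM ratios (y axis) in each library by group (x axis), with circles, squares and triangles for replicates 1, 2 and 3 and bars for the mean ± SD. The ratio of decoy to death receptors lies above Control in all 3 CELF6-OE libraries, that of CFLAR to CASP8 overlaps, and that of TNFSF10 to the death receptors lies below Control in all 3.

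FAS (ENSG00000026103), on the plus strand of chromosome 10 from 88953813 to 89029605, encodes the receptor of FAS ligand. Its FPKM was 3.87, 4.58 and 4.77 in CELF6-OE and 7.96, 7.83 and 5.65 in Control, and its counts were 380, 460 and 456 against 817, 836 and 604. Control replicate 3 was the lowest of its group and still lay above every CELF6-OE library. FAS fell, with means of 4.41 ± 0.474 and 7.15 ± 1.3 (SD, n = 3 each), and its log2 fold change was -0.73 ± 0.13 (SE) with an adjusted p of 0.00272. It stayed between -0.85 and -0.64 over the 17 alternatives, with 0.0206 as the largest adjusted p. ACTA2, the smooth-muscle actin gene on the opposite strand, shares 387 of the 29313 exon bases that GENCODE v44 gives for FAS. The annotation used for the counts was not given, so the shared part of the counted bases may be larger. ACTA2 counts were 323, 301 and 355 in the CELF6-OE libraries against 591, 684 and 670, and it fell by 0.91 on the log2 scale (adjusted p = 0.000211). The library kit keeps strand but the strand setting of the counting was not given in the sources used here, so reads on the shared bases cannot be assigned. STAMBPL1, which shares 166 exon bases on the same strand, had -0.17 ± 0.09 (SE, adjusted p = 0.214). FASLG, the ligand of FAS, had no row in the count table.

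FADD (ENSG00000168040), on chromosome 11 from 70203296 to 70207390, encodes the adaptor that joins receptor and caspase. Its FPKM was 36.28, 37.89 and 35.24 in CELF6-OE and 37.88, 39.13 and 38.7 in Control. CELF6-OE replicate 2 reached the lowest Control library, so the groups met. The log2 fold change was -0.11 ± 0.06 (SE), with a 95% interval from -0.25 to 0.03 and an adjusted p of 0.246, and none of the 17 alternatives called it. An unnamed RNA gene on the opposite strand, RP11-805J14.5, shares 1011 of its 1708 exon bases and had 4 to 14 counts per library.

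CASP8 (ENSG00000064012) and CASP10 (ENSG00000003400) encode the initiator caspases that FADD recruits. CASP8 had FPKM of 8.62, 8.62 and 9.61 in CELF6-OE and 11.96, 11.14 and 10.29 in Control. CASP10 had 1.45, 1.24 and 1.65 against 2.37, 2.17 and 2.1. The groups did not overlap in either gene, and in both CELF6-OE replicate 3 lay nearest to Control. CASP8 fell by 0.34 on the log2 scale (SE 0.07, adjusted p = 0.0091), and the call was lost without CELF6-OE replicate 1, CELF6-OE replicate 2 or Control replicate 2 (adjusted p = 0.0576, 0.0536 and 0.0573). CASP10 fell by 0.64 (SE 0.11, 95% interval from -0.89 to -0.40, adjusted p = 0.00265), on counts of 351, 307 and 389 against 600, 573 and 553. It was called in all 17 alternatives, with values from -0.75 to -0.54, the smallest without CELF6-OE replicate 2, where its fold was under 1.5.

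CFLAR (ENSG00000003402) encodes FLIP, a caspase-8 relative without protease activity. Its FPKM was 4.24, 4.89 and 4.58 in CELF6-OE and 5.35, 5.35 and 5.34 in Control. All CELF6-OE libraries were lower, and in FPKM the spread was almost wholly within that group. In scaled CPM the Control libraries also differed, at 113, 117 and 119.2 against 91.14, 103.4 and 97.61 in CELF6-OE. CFLAR fell, with mean FPKM of 4.57 ± 0.325 and 5.35 ± 0.00577 (SD, n = 3 each), and its log2 fold change was -0.26 ± 0.07 (SE) with an adjusted p of 0.0205. Without CELF6-OE replicate 1, CELF6-OE replicate 3 or Control replicate 2 the adjusted p was 0.114, 0.0592 and 0.104. With limma on log2(FPKM + 1) it was 0.0958. The antisense pseudogene IMPDH1P10 shares 1488 of the 22478 exon bases of CFLAR, and it had 23 to 37 counts per library.

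CFLAR, CASP10 and CASP8 follow one another on the plus strand of chromosome 2, from 201116154 to 201361836, a block of 245.7 kb. All 3 genes of this block were called lower, beside 11.5% of all genes tested, and they are part of the 8 of 10 counted above. Of the flanking tested genes, NDUFB3, a subunit of respiratory complex I, had a log2 fold change of 0.03 ± 0.07 (SE, adjusted p = 0.826). TRAK2, a mitochondrial transport adaptor, had 0.25 ± 0.11 (adjusted p = 0.13). Neither was called.

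**Figure D3:**
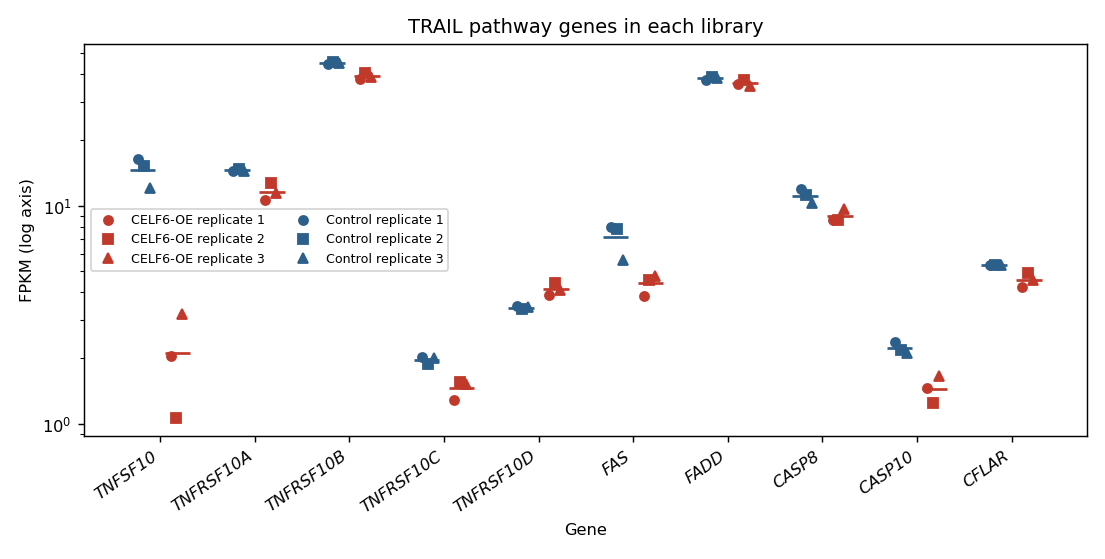
FPKM (log y axis) of the 10 genes (x axis) in each library, with horizontal lines for group means, Control in blue and CELF6-OE in red. TNFSF10 moves from 14.6 in Control, level with TNFRSF10A, to 2.10 in CELF6-OE, while TNFRSF10B and FADD keep the highest FPKM in both groups.

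The order of the levels, compared in FPKM because it accounts for length, was led by TNFRSF10B and FADD in both groups, at 45.1 and 38.6 in Control and 39.2 and 36.5 in CELF6-OE. In Control, TNFSF10 at 14.6 and TNFRSF10A at 14.5 came next, and their ranges overlapped. CASP8 at 11.1, FAS at 7.15, CFLAR at 5.35, TNFRSF10D at 3.41, CASP10 at 2.21 and TNFRSF10C at 1.97 followed, each with a range apart from its neighbours. In CELF6-OE, TNFSF10 dropped to the low end of the order. There its range, 1.06 to 3.2, took in those of CASP10 and TNFRSF10C, which had means of 1.447 and 1.453 and could not be ordered. CFLAR, FAS and TNFRSF10D, at 4.57, 4.41 and 4.13, also overlapped in CELF6-OE although they were distinct in Control. The place of CFLAR in this order depends on the length that FPKM assigns to it, which was not given. In scaled CPM, without length, CFLAR had 113 to 119.2 in Control, above CASP8 (43.8 to 48.14) and FADD (71.33 to 77.06).

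Beyond the 10 genes, 65 other genes of the pathway were listed in 5 groups, of which 57 were tested, 14 fell, 5 rose and 38 were not called. Over all genes tested, 11.5% fell and 6.47% rose. The median log2 fold change of the 57 was -3.35e-05, against 0.01 over all genes. The count of 14 was 9 without CELF6-OE replicate 2, and the count of 5 was 3 without CELF6-OE replicate 2 or Control replicate 2. Among other death ligands and receptors, 3 of 6 tested fell and 0 rose (all genes 11.5% and 6.47%). These were NGFR, the low-affinity neurotrophin receptor, at -1.45 ± 0.32 (SE), EDA2R, the receptor of ectodysplasin A2, at -0.39 ± 0.09, and TNFRSF21, death receptor 6, at -0.33 ± 0.06. NGFR was at a low level, with a mean FPKM of 0.09 against 0.25. TNFRSF1A, the main TNF receptor, had -0.00409 (adjusted p = 0.97) at 154.32 to 158.04 FPKM in CELF6-OE and 151.6 to 157.45 in Control.

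Of 16 tested partners of the death domain and death effector domain complexes, 5 fell and 2 rose (all genes 11.5% and 6.47%), with a median log2 fold change of 0.00425. TNFAIP3, the ubiquitin-editing enzyme A20, fell by 0.76 on the log2 scale (adjusted p = 0.000572). TRADD, the adaptor of the TNF receptor, fell by 0.74 (adjusted p = 0.000189), from FPKM of 17.51, 19.82 and 20.53 in Control to 11.69, 11.57 and 12.18. TNFAIP8, the glycosyltransferase GALNT14, which modifies death receptors, and the kinase RIPK1 fell by 0.31, 0.30 and 0.27 (adjusted p = 0.049, 0.0174 and 0.0441). PEA15, a death effector domain protein that can bind FADD, rose by 0.39 (adjusted p = 0.00249), and CUL3, a ubiquitin ligase scaffold that acts on caspase-8, rose by 0.29 (adjusted p = 0.0332).

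Of 16 caspases and genes of the mitochondrial route, 2 fell, 2 rose and 12 were not called, beside 11.5% lower and 6.47% higher over all genes. CASP9, the initiator of the mitochondrial route, fell by 0.60 (adjusted p = 0.00144), and BAK1, which opens the outer membrane, fell by 0.40 (adjusted p = 0.00774). BID, which links caspase-8 to mitochondria, had -0.10 ± 0.07 (SE, adjusted p = 0.355). BCL2, an inhibitor of apoptosis, rose by 1.27 (adjusted p = 0.0127), from counts of 21, 10 and 15 in Control to 30, 38 and 38, so the call rests on few reads. BCL2L1 and MCL1 of the same list, at mean FPKM of 114 and 48.23 in Control, had -0.22 and -0.20. They were not called (adjusted p = 0.0524 and 0.0577), although their groups did not overlap. DFFA, which holds back the apoptotic nuclease, rose by 0.32 (adjusted p = 0.00709).

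Of 7 inhibitor of apoptosis genes, BIRC3 fell and BIRC5 rose (all genes 11.5% and 6.47%), which is 1 gene in each direction. BIRC3, whose product cIAP2 acts on the TNF receptor complex, had FPKM of 8.16, 10.36 and 9.91 in CELF6-OE and 19.93, 16.82 and 13.57 in Control, and it fell by 0.85 on the log2 scale (adjusted p = 0.000575). BIRC5, survivin, better known for its part in cell division, rose by 0.33 (adjusted p = 0.00679). XIAP, the direct caspase inhibitor, had 0.09 ± 0.11 (SE, adjusted p = 0.574).

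Of 12 tested transcription factors known to act on genes of this pathway, 3 fell and 0 rose (all genes 11.5% and 6.47%). IRF1 had FPKM of 13.06, 12.6 and 15.66 in CELF6-OE and 28.21, 28.32 and 29.3 in Control, and it fell by 1.09 on the log2 scale (adjusted p = 2.01e-05). STAT2 and IRF7, which act in the interferon response, fell by 1.01 and 0.88 (adjusted p = 0.000686 and 0.000375). IRF3, of the same family as IRF1 and IRF7, had -0.15 ± 0.08 (SE, adjusted p = 0.218) and was not called. The groups did not overlap for IRF1, STAT2 or IRF7, beside 20% of all genes with every CELF6-OE library below every Control library. These 3 were named for being called in the same libraries, so this adds no separate evidence. IRF9, the DNA-binding part of the factor that recognises ISREs, had at most 2 counts in any library. Its gene overlaps a read-through gene (ENSG00000259529), which had 3116 to 3203 counts in the CELF6-OE libraries against 3793 to 3994, so its level is uncertain.

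**Figure D4:**
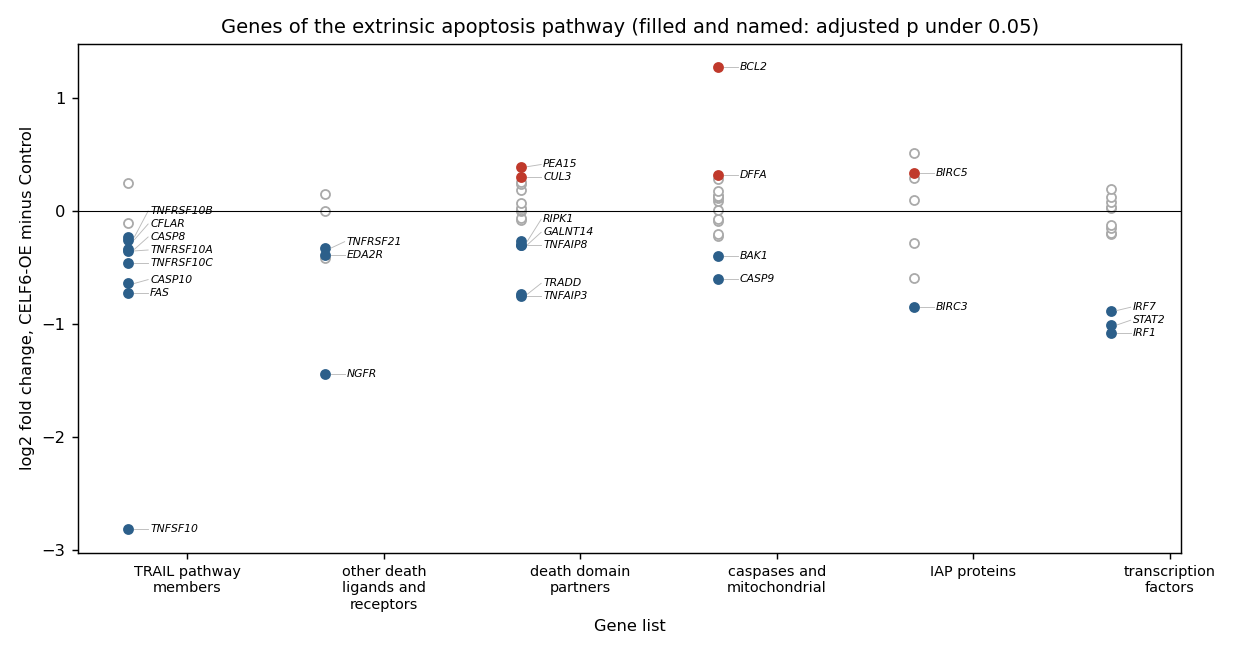
Log2 fold change (y axis, CELF6-OE minus Control) of every tested gene of the 10 and of the 5 pathway lists (x axis), with named filled points for an adjusted p under 0.05 (blue lower, red higher) and open points for the rest. Among the genes plotted, TNFSF10 at -2.82 lies lowest, NGFR at -1.45 is the next, and BCL2 at 1.27 lies highest.

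The protein-coding genes whose profile over the 6 libraries was nearest to that of TNFSF10 were found by Euclidean distance between log2 CPM values centred on each gene's mean. AC015688.3 was nearest, at a distance of 0.238, with 54, 33 and 99 counts under CELF6-OE against 474, 479 and 414. It is a read-through gene that overlaps KSR1 and LGALS9 on chromosome 17, so reads on the shared bases cannot be assigned. NAT8, an acetyltransferase gene, followed at 0.445, on 8, 4 and 10 counts in CELF6-OE against 94, 82 and 63 in Control. It passed the filter's minimum count of 10 through its Control libraries, so its place here is no separate evidence. TNFSF13B, which encodes the TNF-family ligand BAFF, was the next at 0.494, with FPKM of 0.14, 0.11 and 0.32 against 1.67, 1.27 and 1.09. PLA1A, a phospholipase gene, was at 0.51, and CEACAM1, an adhesion molecule gene with 166 to 350 counts against 1453 to 1628, was at 0.529. Like TNFSF10, all 5 were lowest in CELF6-OE replicate 2 and, within that group, highest in replicate 3, an order that for NAT8 rests on few reads. Because the distance is made of the same 6 libraries and mostly of the gap between groups, it is a description of likeness in these samples.

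**Figure D5:**
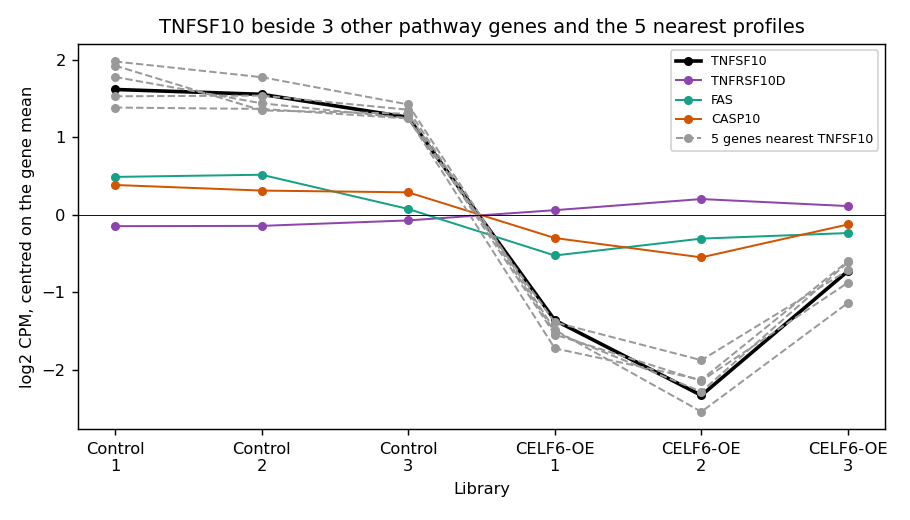
Log2 CPM centred on each gene's mean (y axis) in the 6 libraries (x axis) for TNFSF10, TNFRSF10D, FAS and CASP10 and, in grey, the 5 genes nearest to TNFSF10. TNFSF10 and the grey lines drop in all 3 CELF6-OE libraries and are lowest in replicate 2, FAS and CASP10 drop less, and TNFRSF10D lies slightly above its Control level.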

How the data were processed

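RNA-seq libraries from 3 CELF6-OE and 3 Control cultures of A549 cells were grouped by their labels. The authors trimmed reads, aligned them to GRCh38 with TopHat2 and deposited whole-number read counts per gene, without normalization, from uniquely mapped reads. The authors also deposited FPKM values computed from such reads. Neither the counting tool and its handling of strand nor the annotation is given in the sources used here.

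Counts were scaled with TMM and tested with edgeR 4.0.16 (R 4.3.3) by the quasi-likelihood test on the 15847 genes kept by filterByExpr (minimum count 10), with Benjamini-Hochberg adjustment over all of them, no covariates and a prior count of 0.125 for fold changes. The filter was used because the unfiltered fit had been found in earlier work to have infinite prior degrees of freedom, which were 7.15 here. The biological coefficient of variation was 8.62%. Standard errors and 95% intervals were derived from the quasi-likelihood F statistic and are not adjusted for the number of genes. FPKM gave means, SDs and ratios, the latter compared by exact permutation of the libraries. Library totals of 33748328 to 37920700 limit precision mainly for genes with few counts. Replicates of a group differed beyond sampling noise (chi-square per degree of freedom 7.69 to 29.3), the most between Control replicates 1 and 3.

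Same-numbered libraries did not deviate together (r = -0.0113, -0.0212 and -0.0722), so they were not treated as pairs. Alternatives were other scalings, other filters, DESeq2 1.42.0, limma 3.58.1 (voom, and log2 FPKM), robust fitting, a replicate block and leaving out each library. The procedure was tested on simulated counts. The members, gene lists and tests were chosen with earlier results of these data known, and no list is independent support. All 10 members, every called gene of the pathway lists, and the 5 protein-coding genes nearest in profile to TNFSF10 were named. Some genes of the pathway lists are not reported here and were left out of the list counts. Gene positions came from GENCODE v44 and promoters from RefSeq on GRCh38.p14. Splicing was not analysed here.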

Additional observations from a re-analysis of the deposited data

How the results depend on the processing

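The 10 genes kept their direction in all 17 alternative analyses of the counts. The 8 called lower became 3 under p below 0.01 with a 1.5-fold change, where all genes fell from 1820 to 936 lower and from 1025 to 216 higher. Scaling by library size alone gave 1 of the 10 called higher, TNFRSF10D, where the reported count was 0, and moved the median of all genes from 0.01 to 0.05. Leaving out single libraries gave 3 to 8 of the 10 lower, and 2 to 3 past the study's thresholds. Over all genes it gave 1032 (without Control replicate 2) to 2370 lower and 281 (without CELF6-OE replicate 2) to 1906 (without Control replicate 1) higher. Of the pathway genes it gave 9 to 16 lower (reported 14) and 3 to 7 higher (reported 5). The 3 ratios kept their direction. Without CELF6-OE replicates 1 and 2, in turn, 1127 and 1066 genes were lower and 378 and 281 were higher, and without Control replicate 2, 287 were higher. Fits without a library have fewer samples. Without Control replicate 1 or 3, in turn, the calls over all genes rose, to 2370 and 2036 lower and to 1906 and 1288 higher. What moves these counts was not tested. With the replicate number as a block, 6 of the 10 were called lower, since TNFRSF10B (-0.23, adjusted p = 0.0618) and TNFRSF10C (-0.47, adjusted p = 0.0525) missed the threshold, and 1570 genes were lower and 720 higher. The numbers do not pair the libraries, and no other call among the 10 changed under the block. CFLAR missed the threshold with limma on log2(FPKM + 1) (-0.19, adjusted p = 0.0958) and log2(FPKM + 0.1) (-0.22, adjusted p = 0.0882). A scaling on nuclear protein-coding genes, added after seeing the data, gave 8 lower and 0 higher.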

Other observations

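The study's RT-qPCR primers for TNFSF10 and CASP8, as its supplement lists them, were matched to GRCh38 and to GENCODE v44 transcripts, and their sequences are given because they set which transcripts the assays read.
TNFSF10-F: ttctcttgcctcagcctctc
TNFSF10-R: cacagtagtagcctccaggtt
CASP8-M-F: ttcagcaaaggggctttgac
CASP8-AS-F: ttggatgcaggggctttgac
CASP8-M/AS-R: tcctgtccatcagtgccata

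The TNFSF10-R primer had 1 exact match in the genome, in the untranslated part of the TNFSF10 transcript (chr3:172506087-172506107). TNFSF10-F had 368 exact matches on 24 chromosomes, of which 1 was in TNFSF10 (chr3:172505832-172505851, untranslated), and it also matched transcripts of 7 other genes. The pair spans 276 bp of TNFSF10, and both primers matched the same 2 of its 6 annotated transcripts, TNFSF10-201 and TNFSF10-202. The paper reports that RT-qPCR of selected genes, TNFSF10 among them, matched its RNA-seq data closely. The forward primer CASP8-M-F matched 1 annotated transcript, in which the exon at chr2:201272638-201272776 is joined to that at chr2:201284816-201285317. CASP8-AS-F matched 14 transcripts that join chr2:201276827-201276968 to the same downstream exon. Each forward primer had 10 bases in the upstream exon, and neither had an exact match in the unspliced genome. CASP8-M/AS-R matched once, at chr2:201284983-201285002. The CASP8 gene counts above sum all of these transcripts, and amplification was not examined here.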
